A study of Mus musculus with 14 samples.

Results

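The enzymes that make and break down prostaglandins were followed in RNA-SEQ of newborn mouse brain through 9 genes: Ptgs1, Ptgs2, Ptgds, Hpgds, Ptges, Ptges2, Ptges3, Hpgd and Ptgr1. They were taken by gene symbol, and all 9 were among the 17927 genes of the deposited count table. The family was chosen by the difference between Capn15 KO and WT brains that was already known for its most abundant member, Ptgds, so that this difference is described below without a test of the members. Capn15, the gene targeted in the KO, encodes a calpain-type protease related to the product of the small optic lobes gene of the fruit fly.

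Whole brains were taken at postnatal day 2 (P2) from 7 WT mice, 2 female and 5 male, and from 7 Capn15 KO mice, 4 female and 3 male. They came from 6 litters, of which 5 gave 1 WT and 1 KO brain and litter B gave 2 of each. WT and KO brains with the same replicate number were littermates, and they were of opposite sex in every pair but that of litter F, where both were male. In litter B either KO brain could be set beside either WT brain, and the pairs used here follow the replicate numbers alone. Values and counts by pair could thus depend on that choice for this litter. Both genotypes came from mouse lines made on C57BL/6J. The methods of the study name a Capn15 (lacZ-Neo) allele and a floxed Capn15 allele and do not say which of them gave these brains. By the labels the mice were untreated. The labels call the cell type neurons, while markers of leptomeninges, choroid plexus, vessels, microglia and blood were present in all libraries, with none of the listed markers at 0 throughout.

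Prostaglandins are short-lived lipid signals that cells make on demand and that act close to where they are made. Phospholipases release arachidonic acid from membranes, the cyclooxygenases encoded by Ptgs1 and Ptgs2 turn it into the common precursor prostaglandin H2, and terminal synthases turn that precursor into prostaglandin D2, prostaglandin E2 and related products. The signal ends when transporters carry the prostaglandin into a cell and the enzymes encoded by Hpgd and Ptgr1 oxidize and then reduce it. In brain, Ptgds, which encodes lipocalin-type prostaglandin D synthase, is known from leptomeninges, choroid plexus and oligodendrocytes, and its product is also a secreted carrier of small lipophilic molecules in cerebrospinal fluid.

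Library totals lay between 37620954 and 70910163 counts on genes. Levels are given in CPM, counts per 1000000 counts after scaling with TMM factors, and differences on the log2 scale. Capn15 lay between 24.98 and 27.3 CPM in WT replicates 1 to 6 and between 12.2 and 14.5 CPM in KO replicates 1 to 6. Every KO library thus still held 522 to 1031 counts on Capn15. In litter F it was at 18.7 CPM in the library labelled WT replicate 7 and at 20.2 CPM in the library labelled KO replicate 7, which goes against those labels. The fitted difference in Capn15 was -0.81 (SE 0.118), lower in KO in 6 of 7 pairs, and without litter F it was -0.98 (SE 0.0571), lower in 6 of 6. A member's difference is also given without this litter where that turned its sign or moved it by more than 1.5 times, and for Ptgds.

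Of the 9 genes, 4 lie on mouse chromosome 2 within 10.8 Mb (GRCm38, chr2:25466709-36252272). Ptgds occupies chr2:25466709-25470046 on the minus strand, Ptges chr2:30889471-30929863 on the minus strand, Ptges2 chr2:32395896-32405772 on the plus strand and Ptgs1 chr2:36230426-36252272 on the plus strand. Ptgs2 lies at chr1:150100031-150108227 (plus), Ptgr1 at chr4:58965439-58987119 (minus), Hpgds at chr6:65117293-65144908 (minus), Hpgd at chr8:56294585-56321043 (plus) and Ptges3 at chr10:128058954-128077272 (plus). All are protein-coding in GENCODE M21. An annotated gene on the other strand overlaps Ptgs1 (Gm43621) and Hpgds (Gm17147), and one on the same strand overlaps Ptges (Gm13400) and Hpgd (Gm45540), so that reads in those overlaps are uncertain. Ptges3 has a processed pseudogene copy, Ptges3-ps, with 381 to 795 counts of its own per library, and reads shared by the copies could have been split between them.

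Upstream sequence of the member with the difference between genotypes, Ptgds, is shown with that of the cyclooxygenase genes, whose levels per length differed by 9.09-fold or more in every library. RefSeq sequence of GRCm38.p6 was read for the 250 bases before each start site, and annotated exon of the gene itself was left out. For Ptgds this left 157 bases (chr2:25469843-25469999, minus strand) that end 93 bases before the RefSeq start site. They lie inside the gene as placed above, whose GENCODE start on the minus strand, at 25470046, is farther upstream. The stretches are chr2:36230176-36230425 (plus strand) for Ptgs1 and chr1:150099781-150100030 (plus strand) for Ptgs2, where 183 of the 250 bases lie in exons of another annotated gene. Capitals mark the CAGCTG E-box in Ptgds and the GC box GGGCGG in Ptgs2.
Ptgds: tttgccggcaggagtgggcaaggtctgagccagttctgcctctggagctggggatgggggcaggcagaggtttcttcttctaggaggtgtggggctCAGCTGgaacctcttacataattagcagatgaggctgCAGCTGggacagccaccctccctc
Ptgs1: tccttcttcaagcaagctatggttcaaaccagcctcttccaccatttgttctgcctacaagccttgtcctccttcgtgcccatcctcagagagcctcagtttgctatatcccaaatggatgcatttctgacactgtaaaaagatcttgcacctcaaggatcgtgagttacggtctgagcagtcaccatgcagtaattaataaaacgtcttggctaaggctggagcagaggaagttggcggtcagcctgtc
Ptgs2: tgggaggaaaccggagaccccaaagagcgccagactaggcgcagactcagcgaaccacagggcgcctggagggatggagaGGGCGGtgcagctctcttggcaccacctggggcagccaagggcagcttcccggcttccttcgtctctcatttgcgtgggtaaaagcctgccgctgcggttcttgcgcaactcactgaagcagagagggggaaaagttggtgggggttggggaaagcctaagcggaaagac

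The letters searched on both strands of the 250 bases were the TATA box TATAAA, the box named CCAAT, the GC box GGGCGG, the AP-1 letters TGACTCA, the cAMP response element TGACGTCA or its core CGTCA, the E-box CACGTG and the E-box CAGCTG. The element holds its core, and the letters were chosen after the sequences had been seen. Ptgds held CAGCTG 154 and 117 bases before its RefSeq start site, inside the gene as GENCODE places it. It held the AP-1 letters TGACTCA 35 bases before that site, in the exon that is not printed. CAGCTG was found in 13.01% and TGACTCA in 4.46% of 32817 promoters of the same length. Ptgs1 held none of these letters and had a GC content of 48.0%. Ptgs2 held GGGCGG 170 bases before its start site, as 32.7% of promoters do, and had a GC content of 61.6%. These are matches of letters and were not tested for any function.

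Per length, the 9 genes spanned more than 3 orders of magnitude in the newborn brain. CPM was divided by the kilobases of all annotated exons of a gene (CPM per kb) so that genes could be compared with each other. Ptgds was the highest, with a median of 176 CPM per kb over the 14 libraries (130.0 to 234), and it ranked 514 of 17927 genes by mean CPM. Ptges3, which encodes a cochaperone of Hsp90 that also has cytosolic prostaglandin E synthase activity, followed at a median of 95.4 CPM per kb (89.1 to 103). Ptgds was above Ptges3 in 14 of 14 libraries, by 1.31-fold to 2.44-fold. Ptges2, a membrane-associated prostaglandin E synthase, came next at a median of 8.27 CPM per kb (7.77 to 8.91), and Ptges3 was 10.7-fold to 12.7-fold above it.

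The next 4 genes lay close together. Hpgd had a median of 2.10 CPM per kb, Ptges 1.80, Ptgs1 1.71 and Ptgr1 1.67, and the range of each overlapped that of its neighbours. Hpgd was above Ptges in 11, Ptges above Ptgs1 in 11 and Ptgs1 above Ptgr1 in 9 of 14 libraries, so that no neighbours in this order were separated. Ptgr1, the last of the 4, was below Hpgd, the first, in 14 of 14 libraries, at 0.525 to 0.983 times its level. Hpgds, which encodes the hematopoietic prostaglandin D synthase, lay below them at a median of 0.845 CPM per kb (0.634 to 1.03). The lowest was Ptgs2, the inducible cyclooxygenase, at a median of 0.139 CPM per kb (0.0432 to 0.188).

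Among the members, the cyclooxygenase genes were far apart, and so were the genes of the prostaglandin D and of the prostaglandin E synthases. Ptgds was 160.0-fold to 311-fold above Hpgds, the other prostaglandin D synthase. Ptgs1 was 9.09-fold to 39.7-fold above Ptgs2, the other cyclooxygenase, with a median of 12.5-fold. Among the prostaglandin E synthases, Ptges2 was 3.68-fold to 5.18-fold and Ptges3 43.8-fold to 58.1-fold above Ptges, the inducible microsomal enzyme. Of the summed level per length of the 9 genes, Ptgds made up 64.0% ± 2.21 over WT brains and 58.6% ± 3.52 over KO brains, and Ptges3 made up 30.7% ± 1.97 and 35.3% ± 3.13 (SD, n = 7 each). These are shares of a sum, so that a smaller share of Ptgds means larger shares of other genes. Ptges3 itself averaged 214.6 CPM in WT and 210.5 CPM in KO.

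**Figure D1:**
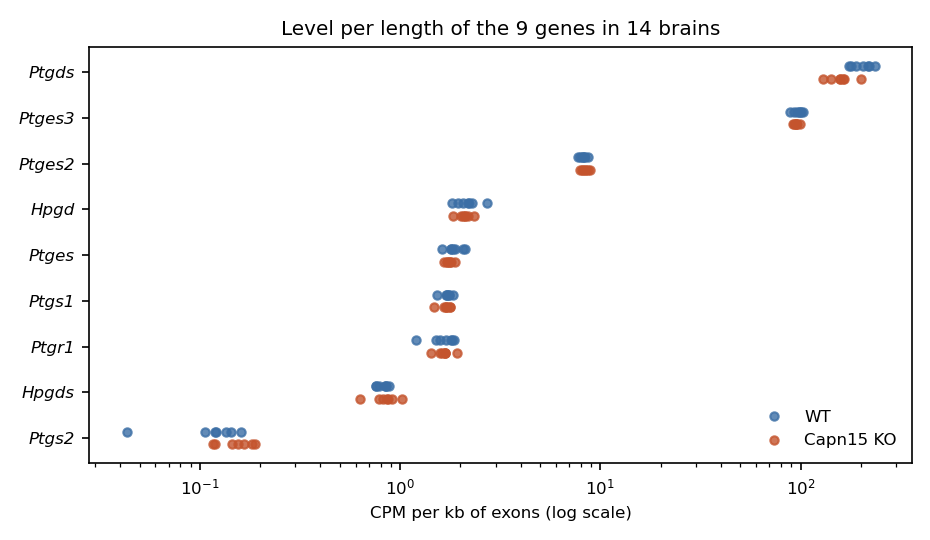
Each point is 1 brain, with CPM per kb of annotated exons on a log axis and the 9 genes ordered by their median over the 14 brains. Ptgds and Ptges3 stand above the rest, the ranges of Hpgd, Ptges, Ptgs1 and Ptgr1 overlap, and Ptgs2 is the lowest gene, with WT replicate 3 at 0.0432 CPM per kb.

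Ptgds was lower in Capn15 KO than in WT brains of the same litter in 7 of 7 pairs. In WT it was at 295 CPM in replicate 1, 286 in replicate 2, 314 in replicate 3, 387 in replicate 4, 337 in replicate 5, 360.1 in replicate 6 and 363 in replicate 7. In KO it was at 214 CPM in replicate 1, 261 in replicate 2, 269 in replicate 3, 271 in replicate 4, 234 in replicate 5, 259 in replicate 6 and 329 in replicate 7. The groups overlapped only through KO replicate 7, the library of litter F whose Capn15 level goes against its label. Without litter F the highest KO brain, at 271 CPM, was below the lowest WT brain, at 286 CPM, a separation that 0.106% of all genes show in these 6 and 6 libraries in either direction and 0.0558% with KO below WT.

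Ptgds thus averaged 334 ± 37.5 CPM (SD, n = 7) over the WT brains, against 262 ± 35.7 CPM (SD, n = 7) over the KO brains. The fitted difference in Ptgds was -0.38 (SE 0.0488), a KO level 0.770 times that of WT in a fit that included both litter and sex. The 7 pairs differed by -0.52 to -0.13 on the log2 scale, with a median of -0.46. The smallest differences were those of pair 2 of litter B (-0.13) and of the pair of litter F (-0.14), and the other pair of litter B was next (-0.22). The values of litter B depend on which of its brains are paired. Without litter F the fitted difference was -0.42 (SE 0.0446). Counting error was small beside this spread: Ptgds had 10002 to 20755 counts per library, which alone would give a coefficient of variation of 0.823% in WT, where 11.2% was observed.

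In the fit over all 17927 genes, edgeR's quasi-likelihood test called 1 gene at an FDR under 0.05, or 0.00558% of the genes, and this gene was Ptgds. Since this contrast chose the family, the call is given as a description of the table only. The study, also with edgeR and with sex and litter as variables, listed more genes at this FDR. It also gave larger differences in Ptgds and Capn15, and the reason was not tested. With a replicate block in place of litter no gene was called by edgeR's quasi-likelihood test, with 811 genes at an unadjusted p under 0.05, and the fitted difference in Ptgds was -0.38. The number of called genes was 7 without litter F and 0 to 7 when single libraries were left out. A value lower in KO in all 7 pairs was found in 0.597% of all genes, and one higher in all 7 in 0.496%. The other 8 members overlapped between genotypes, as Ptgds did and as all but 0.00558% of the genes do in these 14 libraries. None of the 8 had the same direction in all pairs.

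**Figure D2:**
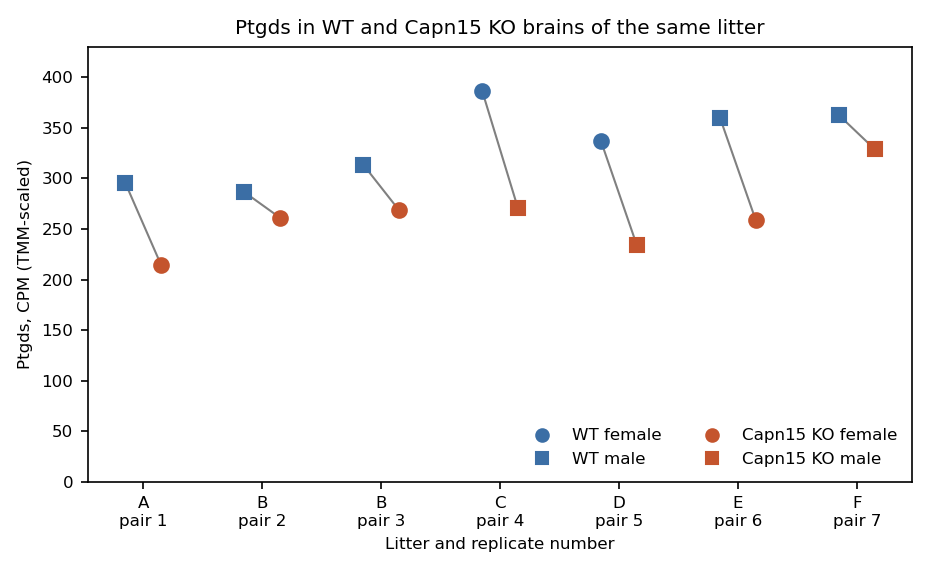
Ptgds in CPM for each of the 7 same-litter pairs, with WT in blue, Capn15 KO in orange, circles for females, squares for males and a line joining the 2 brains of a pair. The line falls from WT to KO in all 7 pairs, least in pair 2 (286 to 261 CPM) and in litter F (363 to 329 CPM).

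No gene near Ptgds was called. Of the 10 other measured genes within 100 kb of it, 0 were called by edgeR's quasi-likelihood test and 0 had an unadjusted p under 0.05, and their differences ran from -0.12 to 0.06. Over the 204 other measured genes between Ptgds and Ptgs1 on chromosome 2, the median difference was 0.01, 0 were called by edgeR's quasi-likelihood test and 9 had an unadjusted p under 0.05, or 4.41%, against 5.14% of all genes.

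The levels of both cyclooxygenase genes overlapped between the genotypes. Ptgs1, the constitutive cyclooxygenase, ran from 5.94 to 7.17 CPM in WT, with a median of 6.65, and from 5.76 to 6.93 CPM in KO, with a median of 6.57. Its difference was -0.03 (SE 0.0607), and its coefficient of variation of 5.63% in WT was no larger than the 5.81% that counting error gives. Ptgs2 ran from 0.198 to 0.734 CPM in WT, with a median of 0.549, and from 0.536 to 0.862 CPM in KO, with a median of 0.707. The groups overlapped, KO being higher in 5 of 7 pairs, and the difference of 0.33 had an SE of 0.239. Ptgs2 had only 8 to 45 counts per library. The lowest value, in WT replicate 3, rested on 8 counts, whose 95% exact Poisson interval of 0.0853 to 0.389 CPM covers counting error only. Without that library the difference in Ptgs2 was 0.21 (SE 0.193), and over the fits without single libraries it ran from 0.14 (without WT or KO replicate 5) to 0.45 (without WT or KO replicate 6). Leaving out WT or KO replicate 6 turned the small difference in Ptgs1 to just above 0 (0.00485 without WT replicate 6).

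The 3 prostaglandin E synthase genes differed by -0.11 to 0.03, and all overlapped between the genotypes. Ptges ran from 6.34 to 8.30 CPM in WT (median 7.26) and from 6.48 to 7.35 CPM in KO (median 6.88), lower in KO in 6 of 7 pairs with a difference of -0.11 (SE 0.0636). The 3 highest brains for Ptges were WT, while the lowest was also WT. Ptges2 ran from 39.3 to 43.7 CPM in WT (median 41.4) and from 40.1 to 45.0 CPM in KO (median 42.5), a difference of 0.03 (SE 0.0329). Ptges3 ran from 198 to 228 CPM in WT (median 217) and from 203 to 221 CPM in KO (median 210.4), a difference of -0.03 (SE 0.0284). Over the fits without litter F or single libraries these small differences stayed between 0.017 and 0.049 for Ptges2 (0.02 without litter F) and between -0.041 and -0.011 for Ptges3. The SEs of Ptges2 and Ptges3 were the smallest of the 9 genes.

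Hpgds was at 4.85 to 5.66 CPM in WT (median 5.39) and at 4.08 to 6.599 CPM in KO (median 5.50). The KO brains enclosed the range of the WT brains, and the difference was 0.05 (SE 0.0846). Its coefficient of variation was 6.197% in WT, close to the 6.54% of counting error, and 14.3% in KO, against 6.23% of counting error. The highest and lowest KO brains for Hpgds were replicates 4 and 5. The sign and size of its difference rested on single libraries: it was -0.10 (SE 0.0829) without WT replicate 4, likewise -0.10 without KO replicate 4, and 0.18 (SE 0.0833) without WT replicate 5, likewise 0.18 without KO replicate 5.

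The genes of the breakdown enzymes overlapped between the genotypes too. Hpgd, which encodes the dehydrogenase that starts the inactivation of prostaglandins, ran from 3.06 to 4.56 CPM in WT (median 3.68) and from 3.10 to 3.92 CPM in KO (median 3.53), with a difference of -0.05 (SE 0.0901). Its highest value was that of WT replicate 7, and without litter F the WT brains reached 3.87 CPM. The difference in Hpgd turned to 0.02 (SE 0.0939) without litter F and to 0.01 without WT replicate 7, and it was -0.15 without WT or KO replicate 4. Ptgr1, a prostaglandin reductase that acts on the oxidized product and also on leukotriene B4, ran from 2.77 to 4.26 CPM in WT (median 3.90) and from 3.27 to 4.42 CPM in KO (median 3.84), with a difference of 0.02 (SE 0.0992). Without litter F the difference in Ptgr1 was 0.098 (SE 0.0991), and over the fits without single libraries it ran from -0.03 (without WT replicate 2) to 0.098 (without KO replicate 7). Of the 9 members 5 had a difference below 0 and 4 above it, with a median of -0.03, beside a median of 0.00 and 48.6% below 0 over all genes.

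**Figure D3:**
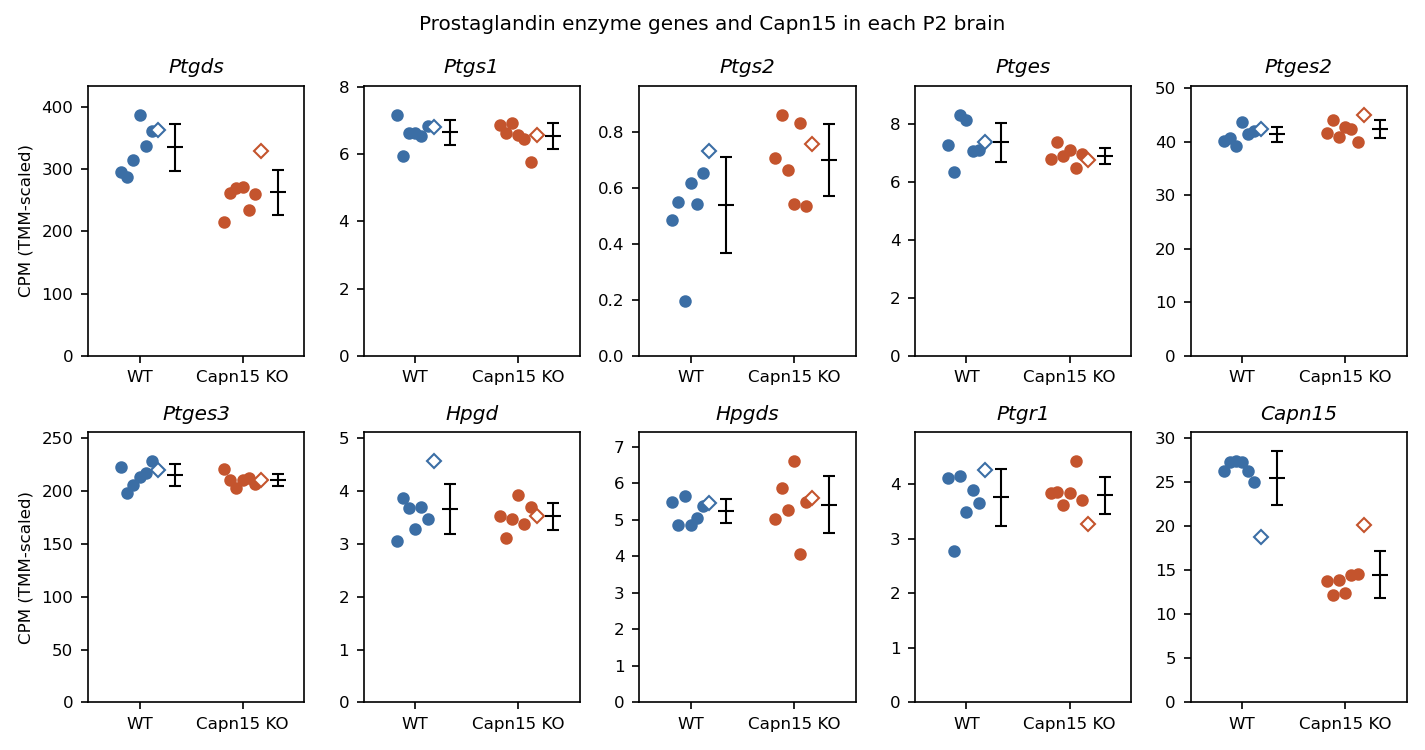
CPM of the 9 genes and of Capn15 in each brain, WT in blue and Capn15 KO in orange, with open diamonds for litter F and black bars for the mean ± SD of 7 brains. Ptgds is the member whose KO brains lie below the WT brains apart from litter F, and Capn15 of litter F lies between the genotypes in both brains.

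Markers of cell types known to express Ptgds were read beside it. In a bulk sample fewer cells of a type and less RNA per cell cannot be told apart. The 13 choroid plexus epithelium markers summed to 779 to 1021 CPM in WT (median 962) and 639 to 889 CPM in KO (median 764), lower in KO in 7 of 7 pairs. Ttr, the transthyretin gene, made up 89.7% of this sum, followed by Aqp1 and Clic6. The study listed Ttr as lower in KO at an FDR under 0.05. None of the 13 was called by edgeR's quasi-likelihood test. Its likelihood ratio test called 2 and DESeq2 called 1, where they called 34 and 17 of all 17927 genes. At an unadjusted p under 0.05 by the quasi-likelihood test, 9 were lower and 1 higher in KO. The share of all genes was 5.14% in either direction. The median difference over the list was -0.22. Without Ttr the sums were 81.2 to 102 CPM in WT and 69.8 to 93.8 CPM in KO. The part of these genes in the Ptgds difference was not tested.

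The 15 leptomeninges markers, led by Col1a2, Col1a1 and Dcn, summed to 317 to 454 CPM in WT (median 401) and 354 to 431 CPM in KO (median 368), lower in KO in 5 of 7 pairs. None was called. At an unadjusted p under 0.05, 4 were lower in KO and none higher, beside 5.14% of all genes in either direction. The median difference was -0.06. The 10 oligodendrocyte lineage markers, led by Pdgfra, Mbp and Olig1, summed to 360.1 to 650 CPM in WT (median 511) and 395 to 660 CPM in KO (median 464), lower in KO in 5 of 7 pairs with a median difference of -0.09. None was called, and 2 were lower and none higher in KO at an unadjusted p under 0.05, beside the same 5.14% of all genes. For these lists too their part in the Ptgds difference was not tested.

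After each genotype's mean was subtracted, no relation of Ptgds with these sums passed the test over the 14 libraries. The permutations shuffled all libraries freely, litter F included, and did not keep littermates together. Their p-values thus do not account for litter and cannot decide whether a relation holds within litters. In a permutation test with 100000 permutations, Pearson's r was 0.04 for choroid plexus (p = 0.880, adjusted p = 0.922, Spearman's rho 0.36, p = 0.203, adjusted p = 0.473), and it was -0.11 without the 2 libraries farthest from the median sum. For leptomeninges r was 0.04 (permutation p = 0.892, adjusted p = 0.922, rho 0.18, p = 0.543, adjusted p = 0.543), and 0.22 without the farthest 2. For the oligodendrocyte lineage r was 0.24 (permutation p = 0.416, adjusted p = 0.816, rho 0.21, p = 0.463, adjusted p = 0.543), and -0.27 without the farthest 2. With litter means removed as well, r was -0.15 for choroid plexus, 0.14 for leptomeninges and 0.82 for the oligodendrocyte lineage. The value for the oligodendrocyte lineage thus differed between the calculation over all libraries and the one within litters, and no p was computed for the latter.

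**Figure D4:**
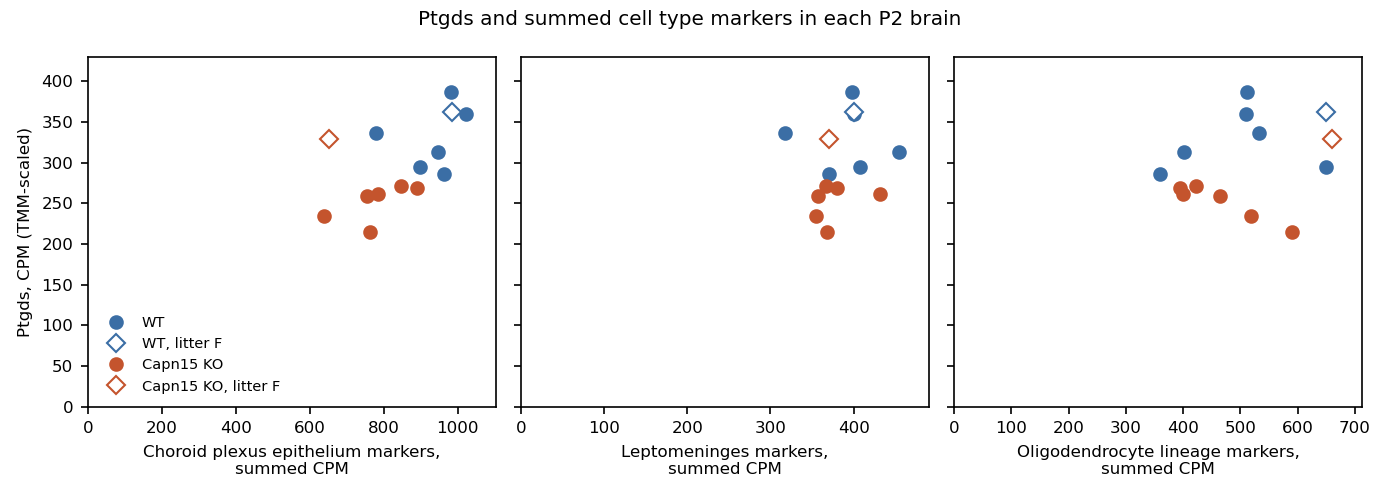
Ptgds in CPM against the summed CPM of 3 marker lists, 1 point per brain, WT in blue, Capn15 KO in orange and open diamonds for litter F. The choroid plexus sums run from 779 to 1021 CPM in WT and from 639 to 889 CPM in KO, and the sums of the other lists overlap more widely between the genotypes.

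The same relations were computed for the members known from immune cells and for Ptgs2, 7 relations in all with those of Ptgds. Their permutations ignored litter in the same way. Hpgds followed the summed markers of microglia and border macrophages, led by Csf1r, Mrc1 and Cx3cr1, with r = 0.71 over 14 libraries (permutation p = 0.00605, adjusted p = 0.0423), while Spearman's rho of 0.61 (permutation p = 0.0221) had an adjusted p of 0.109. The r was 0.59 without the 2 farthest libraries and 0.62 with litter means removed. Ptgs1 had r = 0.38 with the same sum (permutation p = 0.180, adjusted p = 0.631, rho 0.58, p = 0.0311, adjusted p = 0.109), 0.51 without the 2 farthest libraries and 0.72 with litter means removed. That sum lay between 161 and 189 CPM in WT and between 164 and 206 CPM in KO, lower in KO in 3 of 7 pairs.

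The relation of Hpgds with the mast cell list did not pass the test (r = -0.03, permutation p = 0.922, adjusted p = 0.922, rho -0.20, p = 0.5002, adjusted p = 0.543, -0.29 without the 2 farthest libraries and 0.21 with litter means removed). Kit, which other brain cells express as well, made up 98.9% of that sum, and the remaining markers, Cpa3 and Tpsb2, together held at most 2.32 CPM. Ptgs2, an immediate early gene in neurons, had r = 0.22 with the sum of the other immediate early genes, led by Arc, Nr4a1 and Junb (permutation p = 0.466, adjusted p = 0.816, rho 0.22, p = 0.445, adjusted p = 0.543). It was 0.28 without the 2 farthest libraries and -0.52 with litter means removed. Endothelium (6 markers, led by Slco1c1, Cldn5 and Cdh5), mural cells (6, led by Rgs5, Pdgfrb and Abcc9), neurons (8, led by Tubb3, Stmn2 and Dcx) and red blood cells (5, led by Hbb-bs, Hba-a1 and Hbb-bt) had 0 called markers each by edgeR's quasi-likelihood or likelihood ratio test, DESeq2 or limma-voom, with median differences of 0.00, -0.02, 0.01 and -0.07. At an unadjusted p under 0.05 there were 1, 2, 2 and 0 of them, beside 5.14% of all genes, and the sums of these lists overlapped between genotypes. The microglia, mast cell and immediate early gene lists had 0 called markers too, 3, 0 and 1 at an unadjusted p under 0.05, and median differences of 0.05, 0.01 and 0.07.

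Litter was a contrast that had no part in choosing the genes, and between litters Ptgds differed. The mean of its WT and KO levels was lowest in litter A, at 255 CPM, and highest in litter F, at 346 CPM, a ratio of 1.36. Between them lay litters B (282 CPM), D (285 CPM), E (310 CPM) and C (329 CPM). edgeR's quasi-likelihood test over the 6 litters, with genotype and sex in the model, gave an FDR of 0.00742 for Ptgds, and without litter F the FDR was 0.0139. The same test called 5301 genes, or 29.6% of all genes, so that 1 of 9 members was below this background.

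No other member passed the litter test. Their FDR lay between 0.292 (Ptges3) and 0.862 (Ptgs2), and the ratio of the highest to the lowest litter mean between 1.07 (Ptges2) and 1.31 (Ptgs2). The ratio was 1.25 for Hpgds (FDR 0.513) and 1.23 for Hpgd (FDR 0.742).

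Between females and males no member was called, where the test called 0.0669% of all genes. The lowest FDR by edgeR's quasi-likelihood test was that of Ptgds at 0.927, with a female minus male difference of 0.08 (SE 0.0526). Raw means of Ptgds were 288 ± 62.4 CPM (SD, n = 6) in females and 307 ± 44.1 CPM (SD, n = 8) in males, in the opposite order. Of the 6 females 4 were KO, and of the 8 males 3 were KO. Ptgs2 had the largest difference, 0.16, with an SE of 0.261, and the other members were between -0.04 and 0.05. At an unadjusted p under 0.05, 0 of the members were called, and DESeq2, limma-voom and the likelihood ratio test called 0 at an FDR under 0.05.

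Whether the genotype difference depended on sex could be asked only through litter F, because the brains of each other pair were of opposite sex. No member was called by edgeR's quasi-likelihood test of that term, which called 0.00558% of all genes, a single gene, Capn15. For Ptgds the term was -0.56 (SE 0.224) with an FDR of 0.646, with an unadjusted p of 0.0247. It was the 1 member of 9 with an unadjusted p under 0.05, where 6.85% of all genes had one. Since Capn15 itself goes against the labels in that litter, this term cannot be told apart from those labels.

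The rest of the pathway was read from lists of 42 genes in 5 roles, of which 33 were in the deposited table. For Capn15 KO against WT, 0 of 33 were called by edgeR's quasi-likelihood test, by its likelihood ratio test, by DESeq2 or by limma-voom, where the first called 0.00558% of all genes, and 3 had an unadjusted p under 0.05, against 5.14% of all genes. Their median difference was 0.00. These 3 were the prostaglandin F receptor gene Ptgfr, the prostaglandin E receptor gene Ptger4 and the uptake transporter gene Slco2a1, which was named after its value was seen.

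Ptgfr ran from 2.07 to 3.86 CPM in WT and from 1.999 to 2.85 CPM in KO, lower in KO in 6 of 7 pairs. Its difference was -0.37 (SE 0.102), with an FDR of 0.529 by the quasi-likelihood test. Ptger4 ran from 2.99 to 4.58 CPM in WT and from 2.72 to 4.09 CPM in KO, with a difference of -0.20 (SE 0.0756) and an FDR of 0.866. Slco2a1 ran from 3.65 to 7.14 CPM in WT and from 4.37 to 8.02 CPM in KO, higher in KO in 6 of 7 pairs, with a difference of 0.20 (SE 0.0817) and an FDR of 0.914. None of these passed the correction.

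Among 7 genes of arachidonate release, the differences ran from -0.11 to 0.23. Mgll, the monoacylglycerol lipase that supplies much of the arachidonate for prostaglandins in brain, was the most abundant at 66.4 CPM and differed by -0.03 (SE 0.0318). The phospholipase genes Pla2g4e, at 17.2 CPM, and Pla2g6, at 12.8 CPM, differed by -0.01 (SE 0.0402) and -0.03 (SE 0.0569). The 4 other prostanoid synthases ran from -0.11 to 0.15. Cbr1 (47.1 CPM) and Akr1b3 (43.5 CPM), reductases that act on prostaglandins among other substrates, differed by -0.01 (SE 0.0362) and -0.03 (SE 0.0388), and the prostacyclin synthase gene Ptgis (2.89 CPM) by -0.11 (SE 0.0995).

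In the 4 genes of breakdown and transport, the differences were -0.07 (SE 0.0374) for Ptgr2, at 26.5 CPM, and -0.07 (SE 0.0524) for Zadh2, at 11.8 CPM, both prostaglandin reductases, and 0.04 (SE 0.0535) for the export pump gene Abcc4, at 8.91 CPM. The 9 receptor genes were low. Ptger3, the most abundant of them at 13.1 CPM, differed by 0.04 (SE 0.0453). The receptors of prostaglandin D2, the product of Ptgds, were at 1.29 CPM (Ptgdr) and 0.383 CPM (Ptgdr2), and these genes were named after their values were seen. Of the 9 leukotriene and lipoxygenase genes, which take arachidonate into another branch, 5 were under 1 CPM. Lta4h (51.4 CPM), Alox8 (2.24 CPM) and Alox5ap (2.05 CPM) differed by 0.03 (SE 0.0275), 0.04 (SE 0.0904) and 0.00 (SE 0.100).

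Between litters 8 of the 33 pathway genes were called, beside the 29.6% of all genes. Among them were Mgll (FDR 4.49e-05 by the quasi-likelihood test), Ptger3 (FDR 0.000155), Slco2a1 (FDR 0.00158), Alox8 (FDR 0.00435) and Zadh2 (FDR 0.00659). None was called between the sexes.

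**Figure D5:**
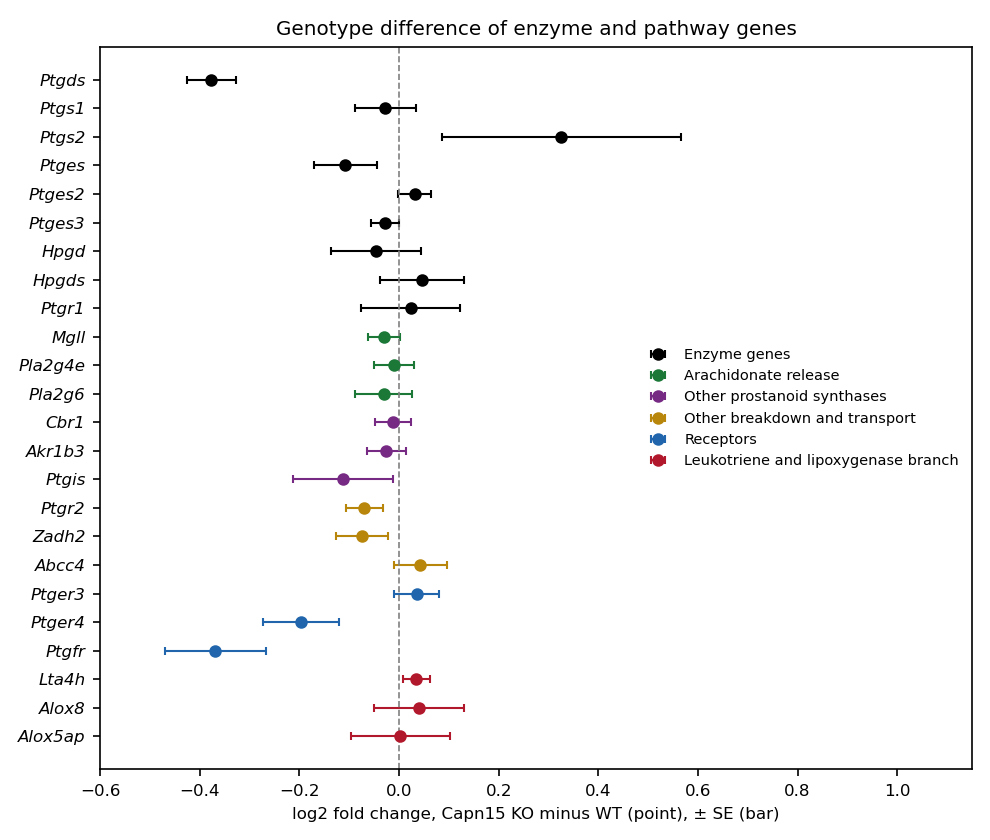
Fitted log2 difference, Capn15 KO minus WT (points), with its SE (bars) for the 9 enzyme genes and for the 3 most abundant genes of each pathway role. Ptgds, at -0.38 ± 0.0488, is the enzyme gene farthest below 0, Ptgfr has a difference of like size with a wider error (-0.37 ± 0.102), and Ptgs2 has the widest error (0.239).

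With the genotype means subtracted, the 36 pairs of members had Pearson correlations between -0.44 (Ptgs2 and Ptges) and 0.66 (Ptgds with Ptges2, and Ptgs2 with Ptges2) over the 14 libraries, which share litters and depth. These values include litter F, are a description and were not tested.

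The genes whose deviations were most like those of Ptgds were, among 15226 other genes with a mean of at least 1 CPM, Sphk1 (r = 0.95), 6430571L13Rik (0.85), Fam126a (0.84), Gjb6 (0.83), Nupr1 (0.81), Gm20387 (0.79), Tmem17 (0.79) and Pdia5 (0.78). Sphk1 encodes a kinase that makes sphingosine 1-phosphate, and Gjb6 encodes the gap junction protein connexin 30. With litter means removed as well, r was 0.92 for Sphk1, 0.81 for 6430571L13Rik, 0.74 for Gjb6, 0.58 for Fam126a and 0.42 for Pdia5. None of the 8 was in a marker or pathway list. Of them, the study listed Sphk1 as lower in KO, as it did Ptgds. The deviations were taken from the mean of each labelled genotype, with litter F included. In KO replicate 7 of that litter Ptgds was at 329 CPM, against 214 to 271 CPM in the other KO brains. No correlation is given without litter F.

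For Hpgds the nearest genes were 1700123O20Rik (r = 0.88), Mis12 (0.86), Fyb (0.85), Zic5 (0.80) and Pdzd8 (0.80), of which Fyb encodes an adaptor protein of blood cells. For Ptgs2 they were Samm50 (r = 0.90), Ric8a (0.85), Mrpl46 (0.85), Arl1 (0.83) and Mblac1 (0.83). At 8 to 45 counts per library the deviations of Ptgs2 hold much counting error, with 21.7% expected from counting alone in WT and 31.7% observed. All these correlations were taken over 14 libraries, litter F included, and chosen as the highest of many, and no p is given for them.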

How the data were processed

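RNA-SEQ of 14 P2 brains was used. The authors trimmed reads with Trimmomatic, aligned them to GRCm38 with STAR and counted them per gene. They deposited raw counts without normalization, 1 column per brain, and a table pairing gene identifiers with symbols. The methods name HTSeq-count and a ScriptSeq kit, while the submitters' processing notes and labels name featureCounts and a stranded TruSeq kit. The annotation release, the strand setting and the rule that filtered the genes are not given in the sources used here. The labels gave genotype and replicate. The header of the count table gave each brain's litter and sex.

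Counts were analysed with edgeR 4.0.16 (R 4.3.3): TMM factors, genotype, litter and sex in the model, all 14 libraries, all genes with at least 1 count, the quasi-likelihood test and Benjamini-Hochberg adjustment over 17927 genes, with a threshold of 0.05. log2 CPM used a prior count of 2. Alternatives were the likelihood ratio test, DESeq2 1.42.0, limma-voom (limma 3.58.1), other scalings, covariates and filters, a replicate block, and fits without single libraries or litter F. The fit was also run on simulated counts drawn without litter or sex effects, so that run cannot show how the fit handles them. Permutation tests and Poisson intervals used Python 3.11.15 with scipy 1.17.1, and all tests were two-sided. Positions and exon lengths came from GENCODE M21 (17915 genes matched by identifier) and promoters from RefSeq (9 of 9 members matched).

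Same-numbered WT and KO libraries were littermates by their column names. The correlation of their deviations from the genotype means lay between -0.467 and 0.443 over 15227 genes. P-values of the main fit set a difference against the spread left between brains after genotype, litter and sex. Those of the permutation tests shuffle deviations from the genotype means alone. Poisson intervals express counting error alone, because PCR copies of a molecule can be read more than once.

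The members and all lists were chosen with earlier results of these data known. Named are every member, Capn15, the 3 most abundant genes of each pathway role, called pathway genes, the genes most correlated with Ptgds (8), Ptgs2 (5) and Hpgds (5), and the 3 most abundant genes of each marker list. The immunoblots and proteomics of the study were not used here.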

Additional observations from a re-analysis of the deposited data

Results flagged for a closer look

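In groups of 7 brains, a value was marked where its gap to the nearest other brain exceeded 0.568 of the range of log2 CPM. Of 70 groups checked, 6 were marked, where chance gives about 1 in 20 (3.5). Ptgs2 in WT replicate 3 stood below the other WT brains with a gap of 0.674 of the range, at 8 counts. Ptgs1 in KO replicate 6 stood below the other KO brains with a gap of 0.622 of the range, at 5.76 CPM. The summed leptomeninges markers stood highest in KO replicate 2 (0.65 of the range, 431 CPM), and the summed red blood cell markers stood lowest in KO replicate 5 (0.594 of the range, 35.4 CPM). The part of these sums in the values of the enzyme genes was not tested.

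Capn15 was marked in both brains of litter F. In WT replicate 7 it stood below the other WT brains by 0.761 of the range, and in KO replicate 7 above the other KO brains by 0.647 of the range. The genotype difference in Capn15 also differed between the sexes in the genotype by sex term of edgeR's quasi-likelihood test (-2.16, SE 0.286, FDR 0.0475), a term that rests on litter F alone. Without litter F the Ptgds difference was -0.42 and without KO replicate 7 it was -0.42, against -0.38 with all 14 libraries.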

How the results depend on the processing

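For Capn15 KO against WT the number of called genes was 34 by the likelihood ratio test and 17 by DESeq2, 0 without scaling factors (883 at an unadjusted p under 0.05), 0 with the replicate block, 2 without sex and 7 without litter F. Leaving out single libraries gave 0 to 7. It was 0 without WT replicate 1, 3, 4, 5 or 6 or without KO replicate 1, 2, 4, 5 or 6, with 706 to 1448 genes at an unadjusted p under 0.05, and it was 6 without WT replicate 7, 7 without KO replicate 7 and 2 without KO replicate 3. The cause was not tested. The Ptgds difference stayed below 0 in all 25 alternatives, from -0.42 to -0.35, and was -0.38 with the replicate block, which changed no other call on the enzyme or pathway genes. From 4 to 7 of the 9 members were below 0, counts of called members for sex, litter and genotype by sex were 0, 1 and 0 in all alternatives fitted, and the FDR of Ptgds between litters lay between 2.1e-05 and 0.0251. The genotype by sex term could not be fitted without litter F, WT replicate 7 or KO replicate 7. Per kb of the longest transcript in place of all exons, the medians were 219 for Ptgds, 106 for Ptges3, 2.31 for Ptgs1, 1.94 for Ptges and 1.39 for Hpgds (CPM per kb), which put Ptgs1 above Hpgd and Ptges, since these lengths are shorter. Depth limits Ptgs2, at 8 to 45 counts, more than any other member.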
